A study of Mus musculus with 14 samples.

Results

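Asparagine-linked (N-) glycosylation was followed through 41 genes that make the sugar donors, build the dolichol-linked glycan, transfer it to protein and trim it. The members are a list of gene symbols, and all 41 were found among the 24015 symbols of the count table. Their RNA was counted in 14 sequencing libraries of mouse embryonic fibroblasts (MEFs), connective-tissue cells taken from embryos and kept in short-term culture. The cells were of strain 129s2, from embryonic day 14.5 and at passage 3 to 4, and were held for 18 hours in normal medium (NT) or in medium lacking glucose (GS). Wild-type libraries number 4 in normal medium (WT-NT) and 3 without glucose (WT-GS), and SirT7-/- libraries number 4 (KO-NT) and 3 (KO-GS) likewise. SirT7 is a nuclear enzyme of the sirtuin family, and the comparisons ask what starvation does in each genotype and whether the genotypes differ. The labels do not describe the SirT7-/- allele further. Whether a group's libraries come from different embryos or culture dishes is not stated either, so every p-value reflects the spread between these libraries, which may be technical.

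N-glycans are assembled on the lipid dolichol at the membrane of the endoplasmic reticulum (ER), from GDP-mannose, UDP-N-acetylglucosamine (UDP-GlcNAc) and dolichol-bound mannose and glucose. The oligosaccharyltransferase moves the finished glycan onto asparagines of new proteins, with either Stt3a or Stt3b as the catalytic subunit. Glucosidases and mannosidases of the ER and Golgi then trim it, which links glycosylation to protein folding and prepares the glycan for branching. Both glucose-derived sugars and the folding state of the ER are known to bear on this pathway.

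Promoter sequence was available from RefSeq (GRCm38.p6) for 34 of the 41 members, as 300-base windows from 250 bases before the transcription start. Gmppb, Dpagt1, Alg2, Alg11, Tusc3, Man1a2 and Man2a2 had no window and were not searched. The windows were searched on both strands for elements bound by factors of the unfolded protein response: the ERSE (CCAAT, 9 bases of any kind, CCACG), the ERSE-II (ATTGG, any base, CCACG), the UPRE (TGACG directly followed by TGG) and the ATF4 composite site (TGATG, any base, AAT). The following 3 windows are shown because they belong to members with large rises in starved cells and differ in these letters. Capitals mark CCAAT and CCACG on either strand.
Alg12 promoter: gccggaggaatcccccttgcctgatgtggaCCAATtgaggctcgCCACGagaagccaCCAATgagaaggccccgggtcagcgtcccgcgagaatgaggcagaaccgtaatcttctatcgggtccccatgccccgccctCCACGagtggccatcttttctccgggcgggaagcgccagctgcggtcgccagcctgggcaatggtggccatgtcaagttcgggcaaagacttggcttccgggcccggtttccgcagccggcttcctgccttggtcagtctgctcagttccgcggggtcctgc
Magt1 promoter: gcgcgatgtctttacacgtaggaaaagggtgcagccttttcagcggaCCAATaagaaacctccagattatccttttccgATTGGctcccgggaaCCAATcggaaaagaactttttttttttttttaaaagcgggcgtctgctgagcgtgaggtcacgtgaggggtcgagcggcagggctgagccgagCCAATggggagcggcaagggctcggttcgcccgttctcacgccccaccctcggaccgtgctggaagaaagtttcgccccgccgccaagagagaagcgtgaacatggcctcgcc
Rpn1 promoter: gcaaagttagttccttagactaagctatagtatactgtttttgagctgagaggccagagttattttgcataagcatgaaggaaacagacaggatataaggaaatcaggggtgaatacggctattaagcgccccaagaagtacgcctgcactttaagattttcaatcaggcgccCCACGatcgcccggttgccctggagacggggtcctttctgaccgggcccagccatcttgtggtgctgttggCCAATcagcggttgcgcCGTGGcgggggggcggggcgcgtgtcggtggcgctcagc
The Alg12 window (chr15:88819269-88819568, minus strand) held the single ERSE found among the 34 members searched, at bases -220 to -202 with the start site counted as 0. The Magt1 window (chrX:106011753-106012052, minus strand) held CCAAT 4 times and no CCACG. In the Rpn1 window (chr6:88084223-88084522, plus strand) CCAAT stood once and CCACG 2 times, at other spacings than in the ERSE. An ERSE was present in 0.137% of the 27025 genes with a window. None of the 34 members held an ERSE-II, a UPRE or an ATF4 composite site in these windows, against 0.0444%, 0.714% and 1.08% of all genes. CCAAT was present in 17 of 34 members (50%) and 41.1% of all genes, and CCACG in 16 of 34 (47.1%) and 35.5%. A match in a window, or its absence, says nothing about binding.

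Total counts per library ran from 59788270 to 91607861, and levels are counts scaled to a library total of 1e+06 (CPM). Sirt7 stood at 16.9 to 23.1 CPM in wild-type and 0.301 to 1.41 CPM in SirT7-/- libraries. Of the SirT7-/- libraries, those labelled KO-NT 4 and KO-GS 3 stood apart. Along the 5161 genes called for starvation in wild type, with the mean of WT-NT at 0 and that of WT-GS at 1, KO-NT 4 lay at 0.876 and KO-GS 3 at 0.162. The positions of KO-NT 1 to 3 ran from -0.036 to 0.024, and those of KO-GS 1 and 2 were 0.905 and 0.904. Hspa5, the main ER chaperone, was at 6333 CPM in KO-NT 4 and 1066 CPM in KO-GS 3, against 1065 to 1479 CPM in WT-NT and 6206 to 7435 CPM in WT-GS. SirT7-/- results are therefore given as labelled and without these 2 libraries. Fibroblast markers summed to 43180 to 50670 CPM in WT-NT and 24170 to 26100 CPM in WT-GS. The list did not move as a whole. Col1a1 ran from 9036 to 14400 CPM in WT-NT and from 2551 to 2875 CPM in WT-GS. Col1a2, Col3a1, Thy1, Pdgfra, Pdgfrb and Lum were also lower in WT-GS without overlap. Vim, Fn1 and Dcn overlapped, with Fn1 at 9424 to 14200 CPM in WT-NT and 12000 to 13230 CPM in WT-GS. Of 14 macrophage marker symbols, 13 were in the table, all but Adgre1. Their sum ran from 306.9 to 2067 CPM in WT-NT and 13.7 to 364 CPM in WT-GS. In SirT7-/- it ran from 394 to 725 CPM in KO-NT and 115 to 1103 CPM in KO-GS. Of the other marker lists, muscle summed to 81.25 to 140.3 CPM in WT-NT and 94.88 to 247.8 CPM in WT-GS, with only Ckm at 0 in every library. Endothelium summed to 6.08 to 19.95 CPM in WT-NT and 15.69 to 19.87 CPM in WT-GS. Epithelium, with Krt5 at 0 in every library, summed to 5.03 to 12.67 CPM in WT-NT and 4.34 to 10.3 CPM in WT-GS. In the red-cell list 4 globin genes were at 0 in every library. A list of neuronal markers, nearly all of it from Stmn2, summed to 6.04 to 41.5 CPM in WT-NT and 53.9 to 126.9 CPM in WT-GS. In bulk RNA, fewer cells of a type and less RNA per cell cannot be told apart.

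Starvation of wild-type cells raised most genes of the oligosaccharyltransferase and several of the assembly enzymes, and lowered those of Golgi alpha-mannosidase II and a subunit of dolichol-phosphate-mannose synthase. Counts were fitted across all genes with edgeR's quasi-likelihood test on the 7 wild-type libraries, and a gene was called at a Benjamini-Hochberg adjusted p under 0.05. All 41 members passed the filter on low counts, and 21 were called, 16 higher and 5 lower without glucose, against 33.8% of the 15263 genes tested (16.8% higher and 17% lower). The median log2 change of the 41 members was 0.11, and that of all genes tested was -0.03. By role, 6 of 8 oligosaccharyltransferase genes rose and none fell, 6 of 12 assembly genes rose and 1 fell, 2 of 11 donor and dolichol genes rose and 2 fell, and 2 of 10 trimming genes rose and 2 fell. The median log2 change was 0.61 for the transferase, 0.23 for assembly, -0.08 for donors and -0.06 for trimming. The libraries of the groups did not overlap for 24 of the 41 members, a state met by 45.4% of all genes tested. Together the members took 0.434 to 0.444% of all counts in WT-NT and 0.536 to 0.578% in WT-GS.

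**Figure D1:**
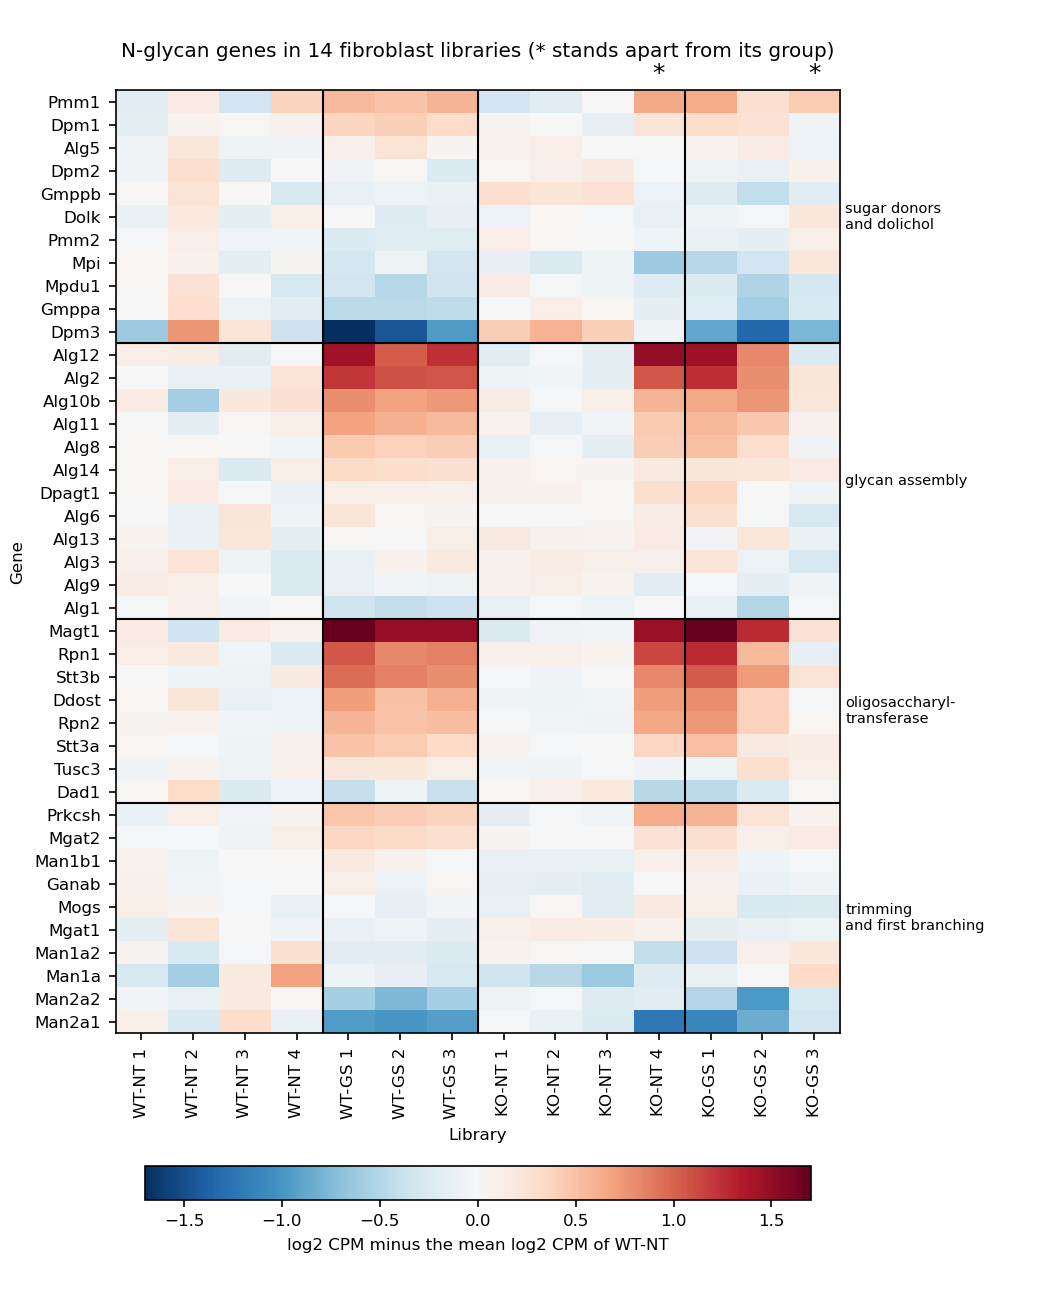
Heat map of log2 CPM of the 41 members in each of the 14 libraries, relative to the mean of the 4 WT-NT libraries, with genes ordered by role and, within a role, by their change in wild type. Red is higher and blue lower. Asterisks mark KO-NT 4, whose column resembles the starved libraries, and KO-GS 3, whose column resembles those in normal medium.

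Among the donor genes, the catalytic and the anchoring subunit of the synthase of dolichol-phosphate-mannose, the mannose source inside the ER, moved in opposite directions. Dpm1, the catalytic subunit of its synthase, rose by a log2 change of 0.40 (SE 0.0829, adjusted p = 0.00933 by edgeR). Dpm3, the small subunit that anchors Dpm1 in the membrane, was at 5.42, 14.03, 9.74 and 6.52 CPM in WT-NT 1 to 4 and at 2.46, 3.04 and 4.29 CPM in WT-GS 1 to 3. All 3 starved libraries lay below all 4 others, although WT-NT itself was widely spread, and Dpm3 fell by 1.40 on the log2 scale (SE 0.374, adjusted p = 0.0243 by edgeR). The fall was not called when WT-NT 3 was left out (adjusted p = 0.0529 by edgeR), nor when WT-GS 1 (0.0944) or WT-GS 2 (0.0825) was. The remaining subunit, Dpm2, had the smallest change of the donor genes, at 28.8, 36.0, 25.8 and 30.1 CPM in WT-NT and 28.8, 30.3 and 25.4 CPM in WT-GS, so the groups overlapped in part (log2 change -0.06, 95% interval -0.35 to 0.24).

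The enzymes that lead from hexose phosphate to GDP-mannose changed little or in part. Pmm1, a phosphomannomutase, was at 49.3, 62.2, 44.7 and 72.8 CPM in WT-NT and at 82.0, 78.3 and 83.9 CPM in WT-GS. Every starved library exceeded every other wild-type library, and Pmm1 rose by a log2 change of 0.55 (SE 0.161, adjusted p = 0.0334 by edgeR). Pmm2, the phosphomannomutase whose loss causes the most common congenital disorder of glycosylation, was at 45.0, 49.6, 44.4 and 44.6 CPM in WT-NT and 39.1, 39.6 and 39.8 CPM in WT-GS. The groups did not overlap, but the change of -0.17 was not called (adjusted p = 0.112 by edgeR). Gmppa, the regulatory subunit of GDP-mannose pyrophosphorylase, went from 50.03, 60.5, 46.9 and 43.4 CPM to 36.2, 36.3 and 36.9 CPM without overlap. It fell by 0.42 on the log2 scale (SE 0.122, adjusted p = 0.0337 by edgeR). Gmppb, its catalytic subunit, was at 47.6, 55.4, 47.3 and 39.2 CPM in WT-NT and 43.2, 44.4 and 43.5 CPM in WT-GS, inside the range of the fed libraries (log2 change -0.08, adjusted p = 0.652 by edgeR). The calls for Pmm1 and Gmppa were each lost when any of several libraries was left out, with adjusted p by edgeR of up to 0.0961 for Pmm1 and 0.118 for Gmppa. Mpi, Dolk, Mpdu1 and Alg5, which supply mannose phosphate, dolichol phosphate, the use of dolichol-bound sugars and dolichol-phosphate-glucose, were not called, with log2 changes of -0.19, -0.08, -0.35 and 0.16.

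The assembly genes that rose sit at separate steps of the chain. Alg2, which adds the mannoses that follow the first, was at 40.1, 37.1, 37.1 and 47.4 CPM in WT-NT and at 93.4, 85.3 and 84.5 CPM in WT-GS. The starved libraries lay far above the others, and the log2 change was 1.16 (SE 0.101, adjusted p = 0.000351 by edgeR). Alg11, which adds the last mannoses on the cytosolic face, went from 34.6, 31.3, 35.5 and 37.5 CPM to 55.7, 52.7 and 50.8 CPM, again without overlap (log2 change 0.66, SE 0.083, adjusted p = 0.00134 by edgeR).

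On the lumenal side, Alg12, a mannosyltransferase, was at 14.3, 14.4, 11.5 and 12.9 CPM in WT-NT and at 35.5, 26.9 and 31.3 CPM in WT-GS. It had the largest rise of the assembly genes (log2 change 1.28, SE 0.132, adjusted p = 0.000608 by edgeR), with no overlap. Alg3 and Alg9, which add mannoses before and around that step, were not called, and Alg9 had the smallest change of the role. Its levels were 30.6, 30.1, 28.0 and 23.6 CPM in WT-NT and 25.7, 27.0 and 26.3 CPM in WT-GS, fully overlapping (log2 change -0.05, 95% interval -0.31 to 0.21).

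Of the glucosyltransferases that finish the glycan, Alg10b and Alg8 rose and Alg6 did not pass the test (log2 change 0.13). Alg10b, which adds the terminal glucose, was at 88.2, 53.6, 90.4 and 95.5 CPM in WT-NT and at 138, 128 and 133 CPM in WT-GS. WT-NT 2 was low within its group, the groups did not overlap, and the log2 change was 0.74 (SE 0.185, adjusted p = 0.019 by edgeR). Without WT-GS 1 or WT-GS 3 the adjusted p of Alg10b by edgeR was 0.0681 or 0.0517. Alg8 rose by a log2 change of 0.46 (adjusted p = 0.00453 by edgeR). At the start of the chain, Dpagt1, which begins the glycan, and Alg13 were not called. Alg14, the membrane partner of Alg13, had a log2 change of 0.33 at an adjusted p of 0.0482 by edgeR, and Alg1, which adds the first mannose, fell by 0.32 (adjusted p = 0.0181 by edgeR). Alg14 lost its call in 8 of the alternatives and Alg1 in 4, with adjusted p by edgeR of up to 0.146 and 0.0842.

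**Figure D2:**
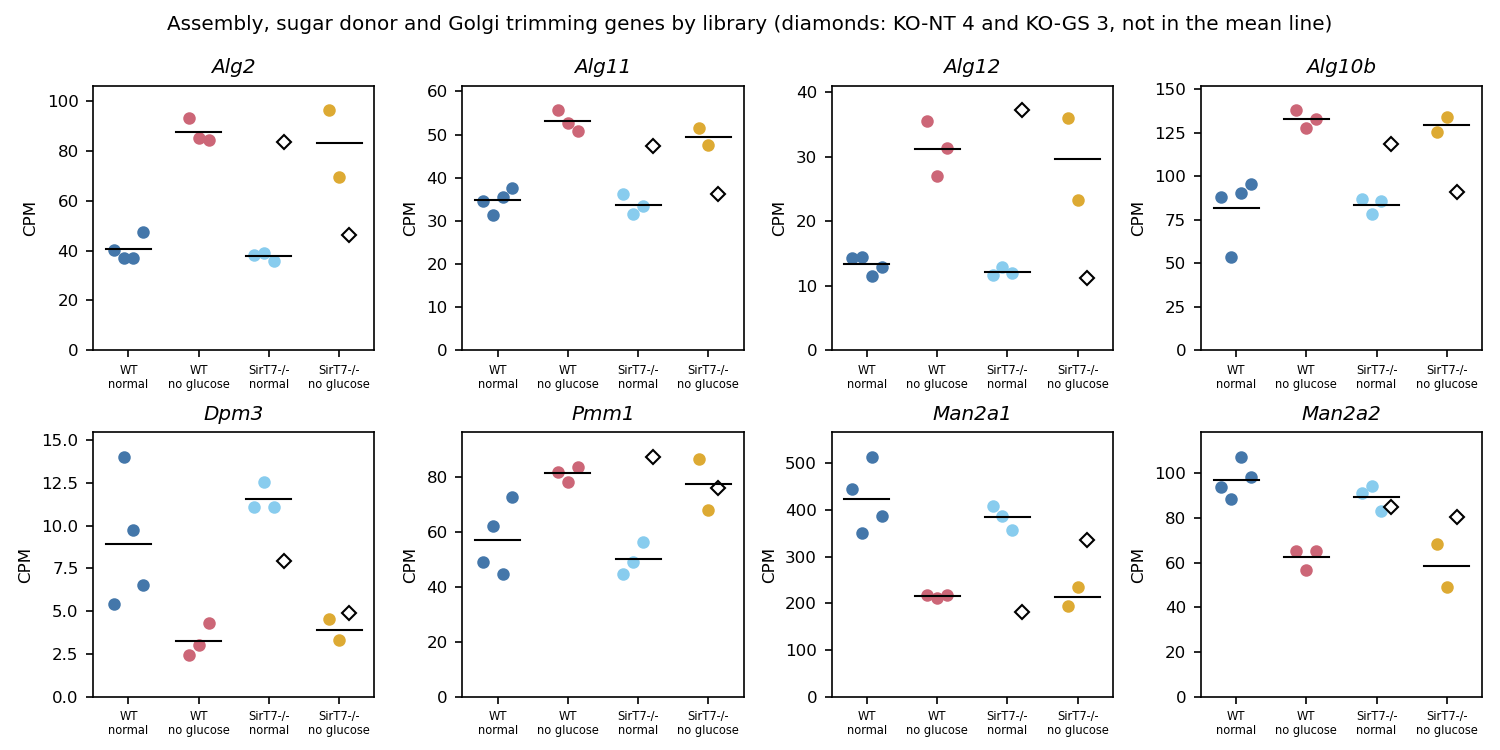
CPM of 8 assembly, donor and Golgi trimming genes in each library, with axes from 0, 1 point per library and a line at the mean of the group without KO-NT 4 and KO-GS 3, which are drawn as open diamonds. Alg2, Alg11, Alg12 and Alg10b are higher and Dpm3, Man2a1 and Man2a2 lower in WT-GS than in WT-NT, with no overlap.

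Of the 4 roles, the oligosaccharyltransferase had the highest median change. Magt1, a thioredoxin-like subunit of the Stt3b form that is also tied to magnesium transport, was at 145, 104, 145 and 138 CPM in WT-NT and at 449.9, 369 and 368 CPM in WT-GS. It had the largest rise of all 41 members, 3.07-fold or a log2 change of 1.62 (SE 0.138, adjusted p = 0.000346 by edgeR). Tusc3, which takes the same place as Magt1 in the complex, had the smallest change of the role, at 77.6, 84.5, 76.3 and 85.5 CPM in WT-NT and 92.1, 91.3 and 86.6 CPM in WT-GS. These groups did not overlap either, but the log2 change of 0.20 was not called (adjusted p = 0.0691 by edgeR).

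Of the catalytic subunits, Stt3b, which glycosylates sites left over after translocation, was at 198, 188, 187 and 219.8 CPM in WT-NT and at 381, 359 and 343 CPM in WT-GS. Its log2 change was 0.91 (SE 0.0831, adjusted p = 0.000404 by edgeR). Stt3a, which works at the translocon as chains enter the ER, was at 428, 406, 398 and 437 CPM in WT-NT and at 584, 565 and 529.7 CPM in WT-GS. It rose less (log2 change 0.47, SE 0.0774, adjusted p = 0.00403 by edgeR), and neither gene's groups overlapped.

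The shared subunits followed. Rpn1 (ribophorin I) was at 324, 338, 291 and 257 CPM in WT-NT and at 626, 530.4 and 546 CPM in WT-GS, a log2 change of 0.95 (SE 0.121, adjusted p = 0.00139 by edgeR). Rpn2 (ribophorin II) went from 544, 554, 512 and 508 CPM to 793, 738 and 765 CPM (log2 change 0.57, SE 0.0825, adjusted p = 0.00222 by edgeR). Ddost, which stabilises the complex, went from 266, 299, 238 and 244 CPM to 425, 367 and 395 CPM (log2 change 0.64, SE 0.108, adjusted p = 0.00427 by edgeR). All 3 were higher in every starved wild-type library than in any wild-type library of normal medium. Dad1, a small core subunit, did not follow: its log2 change was -0.25, with a 95% interval of -0.58 to 0.09.

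**Figure D3:**
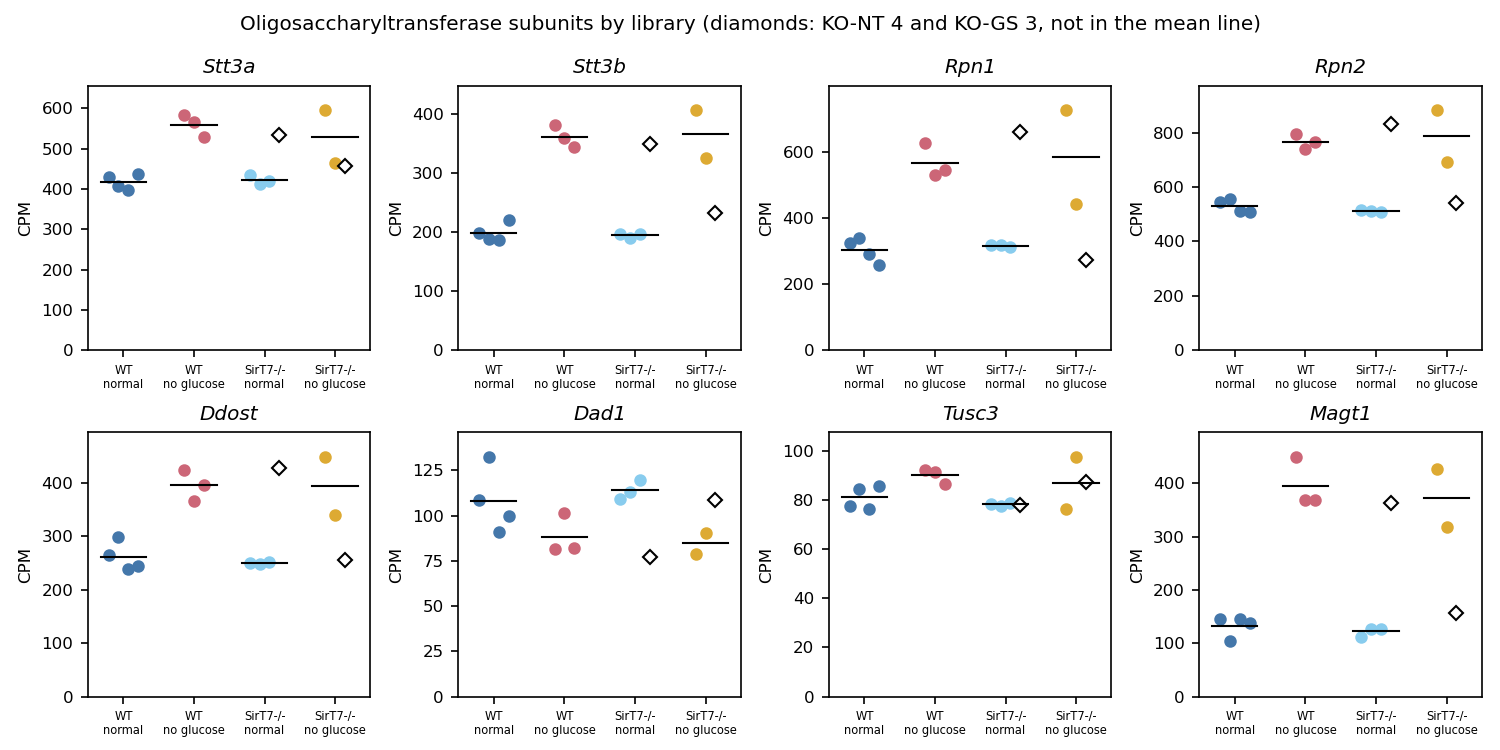
CPM of the 8 oligosaccharyltransferase members in each library, with axes from 0, 1 point per library and a line at the mean of the group without KO-NT 4 and KO-GS 3, drawn as open diamonds. In wild type, 7 of the 8 are higher without overlap, of which all but Tusc3 were called. Of all genes tested, 45.4% did not overlap, in either direction. For the called genes the diamond of KO-NT 4 lies near the starved libraries, and that of KO-GS 3 nearer the libraries in normal medium. For Tusc3 the reverse holds, with KO-NT 4 at 77.8 CPM and KO-GS 3 at 87.3 CPM.

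In trimming, the falls lay in the Golgi. Man2a1, the main alpha-mannosidase II, which removes mannoses after the first branch is set, was at 446, 349.9, 514 and 386 CPM in WT-NT and at 218, 212 and 219 CPM in WT-GS. It fell by 0.93 on the log2 scale (SE 0.14, adjusted p = 0.00275 by edgeR), with no overlap. Man2a2, its close relative, went from 93.9, 88.4, 108 and 98.3 CPM to 65.3, 56.9 and 65.4 CPM and fell by 0.59 (SE 0.0985, adjusted p = 0.00406 by edgeR).

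The other Golgi enzymes of this role changed less. Mgat2, which starts the other antenna after mannosidase II has acted, rose by a log2 change of 0.36 (SE 0.0669, adjusted p = 0.00618 by edgeR), and Mgat1, which starts branching, was not called (log2 change -0.09). Man1a, a Golgi mannosidase I, was at 37.6, 30.6, 50.7 and 73.1 CPM in WT-NT and 43.0, 41.4 and 37.6 CPM in WT-GS. The related Man1a2 was at 133, 106, 126 and 154 CPM in WT-NT and 112, 112 and 109 CPM in WT-GS. Both overlapped between the groups, the spread within WT-NT was wide, and neither was called (adjusted p = 0.602 and 0.275 by edgeR).

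In the ER, glucosidase II changed in its non-catalytic subunit. Prkcsh, the subunit that retains the enzyme in the ER, rose by a log2 change of 0.46 (SE 0.0796, adjusted p = 0.00462 by edgeR, and 0.0538 in a fit on all 14 libraries). Ganab, the catalytic subunit, had a change of 0.06 (95% interval -0.14 to 0.25). Mogs, the glucosidase that removes the outermost glucose, had the smallest change of the role. It was at 51.8, 49.7, 47.6 and 44.6 CPM in WT-NT and 47.3, 43.9 and 46.9 CPM in WT-GS, so the groups overlapped in part (log2 change -0.03, 95% interval -0.23 to 0.17). Man1b1, the ER mannosidase, was not called either (log2 change 0.11).

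**Figure D4:**
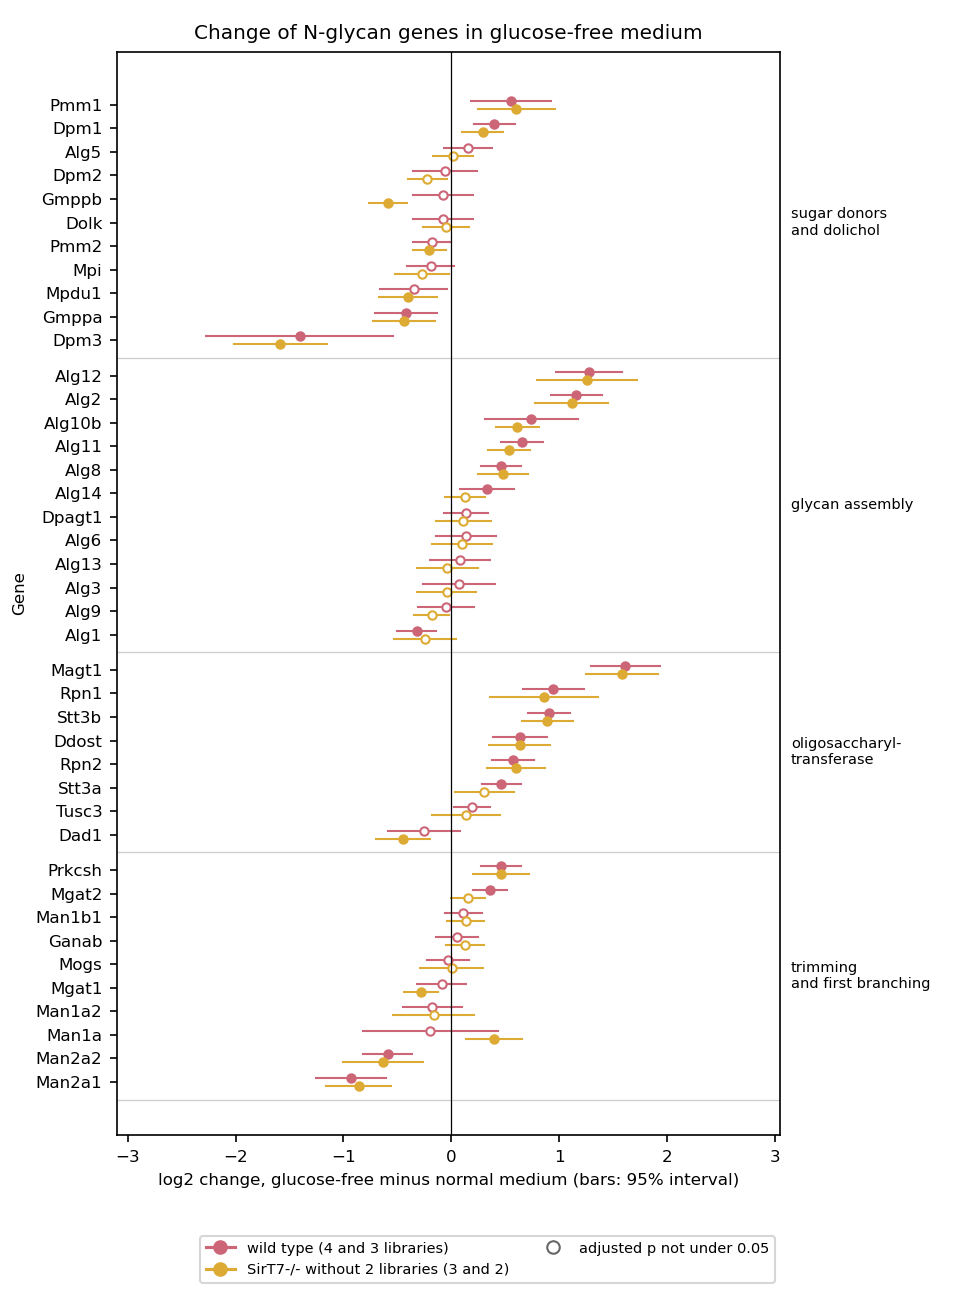
Log2 change without glucose for each of the 41 members by role, in wild type (4 and 3 libraries) and in SirT7-/- without KO-NT 4 and KO-GS 3 (3 and 2 libraries), with 95% intervals. Filled points have an adjusted p under 0.05 by edgeR. The transferase genes lie mostly to the right of 0, from -0.25 to 1.62 in wild type, and the points of both genotypes lie close together for most genes.

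In all, 6 pairs of related members were compared within each library, as the log2 ratio of their CPM, which follows unequal change and not levels per length. Stt3b over Stt3a went from -1.08 ± 0.0579 (SD, n = 4) to -0.63 ± 0.0191 (SD, n = 3), a shift of 1.36-fold toward Stt3b. Magt1 over Tusc3 went from 0.70 ± 0.287 to 2.13 ± 0.142, a shift of 2.69-fold. Gmppb over Gmppa went from -0.08 ± 0.072 to 0.26 ± 0.0256, a shift of 1.27-fold. The wild-type groups did not overlap for 5 of the 6 pairs, all but Man1a over Man1a2. For the 3 pairs given so far the exact two-sided permutation test gave p = 0.0286, the smallest that 4 against 3 libraries allow, or 0.0571 after adjustment over the 6 pairs. Pmm1 over Pmm2 went from 0.29 to 1.04 and Man2a1 over Man2a2 from 2.12 to 1.79 (exact p = 0.0571 and adjusted p = 0.0686 for both). Man1a over Man1a2 showed no shift beyond its spread, from -1.50 ± 0.371 to -1.46 ± 0.0813 (exact p = 0.886). In SirT7-/- without KO-NT 4 and KO-GS 3 that ratio had a mean of -2.01 in normal medium and -1.43 without glucose, and KO-NT 1 to 3 (-2.14 to -1.90) did not overlap KO-GS 1 and 2 (-1.60 and -1.27). These libraries had no test of the ratio.

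**Figure D5:**
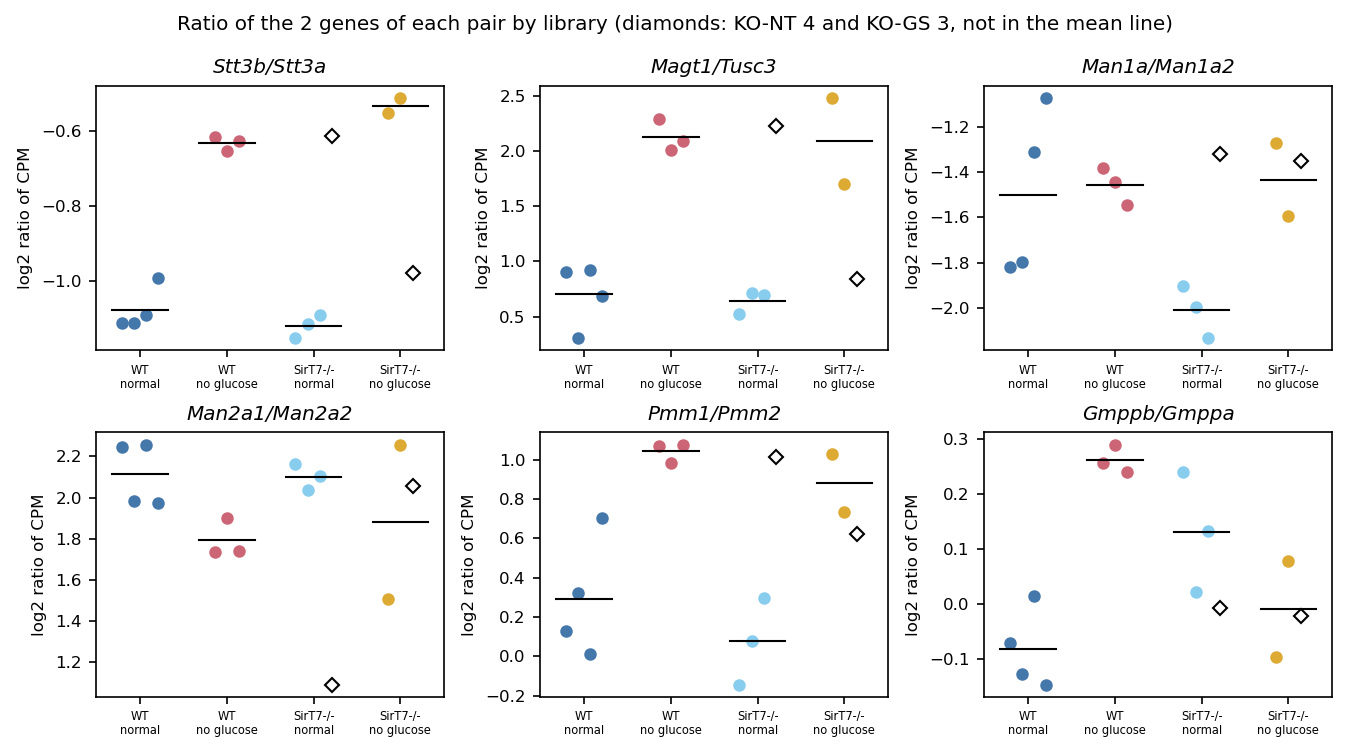
Log2 ratio of the CPM of 6 pairs of related members in each library, 1 point per library, with a line at the group mean without KO-NT 4 and KO-GS 3, drawn as open diamonds. The axes do not start at 0. Magt1 over Tusc3 and Stt3b over Stt3a are higher without glucose in wild type, and in SirT7-/- among the libraries drawn as filled points. With the diamonds counted as labelled, the SirT7-/- media overlap for both ratios. Gmppb over Gmppa is higher in WT-GS than in WT-NT and not in starved SirT7-/- libraries. Man1a over Man1a2 overlaps between the media in wild type and is higher without glucose in the SirT7-/- libraries drawn as filled points.

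Beyond the 41 members, 31 further genes of the pathway were counted as a list. In wild type 15 of the 31 were called, 9 higher and 6 lower, against 33.8% of all genes (16.8% higher and 17% lower), with a median log2 change of -0.08. The rises included Nus1 (0.76) and Srd5a3 (0.43), which make dolichol, Ostc (0.54), a subunit of the Stt3a form, and Uggt1 (0.93), which puts glucose back on unfolded glycoproteins. Ugp2 (0.66), which makes UDP-glucose, and the Golgi sugar-nucleotide carriers Slc35a1 (0.28) and Slc35a3 (0.69) also rose. Among genes of the outer branches, the sialyltransferase St3gal6 rose by a log2 change of 2.65, from 2.55 to 4.49 CPM in WT-NT to 18.4 to 22.6 CPM in WT-GS, and St3gal3 by 0.49. In the same part of the pathway St3gal4 fell by 0.55, the galactosyltransferases B4galt2 and B4galt3 fell by 0.57 and 0.54, and Mgat3 and Mgat4b, which add bisecting and outer GlcNAc, fell by 1.17 and 0.32. Ost4, a very small transferase subunit, fell by 0.87 (adjusted p = 0.00312 by edgeR). Krtcap2, another small transferase subunit, is named for its sequence after its values were seen. It had more than 1 RefSeq window, and only 1 of them held the ERSE-II ATTGGACCACG, at bases 17 to 27. The log2 change of Krtcap2 was 0.02 (adjusted p = 0.929 by edgeR).

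Beside these changes, the fibroblast sum was lower and the neuronal sum higher in every WT-GS library than in any WT-NT library. The macrophage sum overlapped between the media in both genotypes, with 364 CPM in WT-GS 1 against 306.9 CPM in WT-NT 2, and 1103 CPM in KO-GS 1 against at most 725 CPM in KO-NT. The part of the fibroblast, neuronal and macrophage sums in the changes was not tested.

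In SirT7-/- cells as labelled, starvation gave no called member. By edgeR on the 7 SirT7-/- libraries 0 of 15186 genes passed, so percent called was 0, and 2253 genes had an unadjusted p under 0.05. Of the members, 7 had an unadjusted p under 0.05, and DESeq2 called 3 (Gmppb, Dpm3 and Mgat1, all lower) while limma-voom called 0. Magt1 was at 112, 127 and 127 CPM in KO-NT 1 to 3, at 364 CPM in KO-NT 4, at 427 and 318 CPM in KO-GS 1 and 2, and at 157 CPM in KO-GS 3. For Magt1, KO-NT 4 and KO-GS 3 thus lay inside the range of the other medium or near it. Its log2 change as labelled was 0.71 (95% interval -0.49 to 1.90). This did not hold for every member. Dpm3 was at 7.90 CPM in KO-NT 4 and 4.88 CPM in KO-GS 3, so the media did not overlap as labelled. The same was true of 7 members in all: Dpm3, Gmppa, Gmppb, Mpdu1, Man2a2 and Mgat1, which were lower, and Man1a, which was higher. Overlap as labelled was not counted over all genes. Of the 21 members called in wild type, 17 had KO-NT 4 nearer to the mean of WT-GS than of WT-NT, and 18 had KO-GS 3 nearer to WT-NT. These members are among the genes along which the 2 libraries were seen to stand apart, so the counts are partly fixed by that. Nearness was not counted over all genes, so the counts describe the libraries and nothing particular to the members.

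Without these 2 libraries, 23 of the 41 members were called by edgeR, 14 higher and 9 lower, against 39.7% of the 15284 genes tested (20.9% higher and 18.8% lower). This fit compared 3 libraries with 2. The 2 libraries were left out because of where they lay along the wild-type starvation genes, the called members among them, so the choice of libraries used the outcome: the fit describes the libraries kept and is no independent test. By role, 5 of 12 assembly genes rose, 5 of 8 transferase genes rose and Dad1 fell, 2 of 11 donor genes rose and 5 fell, and 2 of 10 trimming genes rose and 3 fell. The libraries of the groups did not overlap for 31 members, against 64.8% of all genes tested. In a fit on all 4 groups without the 2 libraries, 19 members were called for starvation in SirT7-/-, against 33.1% of genes. There Stt3a passed as well, and the falls of Dad1, Pmm2, Mpdu1 and Mgat1 and the rise of Man1a did not. Of the list of 31 further genes, 12 were called without the 2 libraries, 8 higher and 4 lower, against 39.7% of all genes, with St3gal6 (2.60), Uggt1 (0.95), Slc35a3 (0.74), Srd5a3 (0.62) and Nus1 (0.62) among the rises and Ost4 (-0.97), Mgat3 (-0.94) and B4galt2 (-0.67) among the falls.

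Without the 2 libraries, Magt1, Alg12 and Alg2 had the 3 largest rises and Dpm3 the largest fall among the members, as in wild type. Magt1 rose by a log2 change of 1.58 (SE 0.133, adjusted p = 0.00203 by edgeR). Alg12, at 11.6, 13.0 and 11.9 CPM in KO-NT 1 to 3 and 36.0 and 23.3 CPM in KO-GS 1 and 2, rose by 1.26 (SE 0.182, adjusted p = 0.00636 by edgeR). Alg2, at 38.4, 38.9 and 35.8 CPM against 96.4 and 69.6 CPM, rose by 1.12 (SE 0.132, adjusted p = 0.00385 by edgeR). For all 3 genes the lower starved library still exceeded every library of normal medium that was kept.

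Stt3b, at 196, 190.1 and 196 CPM against 406 and 325 CPM, rose by 0.89 (SE 0.0936, adjusted p = 0.00293 by edgeR). Rpn1, at 317, 319 and 312 CPM against 727 and 443 CPM, rose by 0.86 (SE 0.195, adjusted p = 0.0229 by edgeR). The starved libraries KO-GS 1 and 2 differed widely here, with KO-GS 1 higher for each of these genes. Ddost, Rpn2, Alg10b, Alg11, Alg8 and Prkcsh were also called higher, with log2 changes of 0.64, 0.60, 0.61, 0.53, 0.48 and 0.46, as were Pmm1 (0.60), Man1a (0.40) and Dpm1 (0.29).

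Among the falls, Dpm3 was at 11.1, 12.5 and 11.1 CPM in KO-NT 1 to 3 and 4.52 and 3.31 CPM in KO-GS 1 and 2, and fell by 1.59 on the log2 scale (SE 0.171, adjusted p = 0.00308 by edgeR). Man2a1 and Man2a2 fell by 0.86 and 0.63 (adjusted p = 0.00553 and 0.0232 by edgeR). Man2a1 went from 409, 387 and 358 CPM to 195 and 234 CPM, with no overlap. Gmppb, at 57.5, 54.5 and 55.7 CPM against 40.3 and 35.3 CPM, fell by 0.59 (SE 0.0702, adjusted p = 0.00386 by edgeR). Gmppa (-0.44), Dad1 (-0.45), Mpdu1 (-0.40), Mgat1 (-0.28) and Pmm2 (-0.20) were the remaining falls.

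The genotypes share no library in these fits. The SirT7-/- libraries kept were chosen by their position along the wild-type changes, so agreement is partly fixed by that choice and what follows is a description. Of the 21 members called in wild type and the 23 called in SirT7-/- without the 2 libraries, 17 were in both sets, or 81% of the former and 73.9% of the latter, and all 17 had the same direction. Over all 15038 genes in both fits these shares were 74.8% and 63.6%, and 3836 of the 3837 shared calls had the same direction. Of all 41 members, 37 (90.2%) had the same sign of change, against 85.3% of all genes. Across the 41 genes, which are not independent replicates, the log2 changes of the genotypes had a Pearson r of 0.967 and a Spearman rho of 0.935, against 0.744 and 0.82 across all genes. With the libraries as labelled, no call was shared, and 32 of the 41 members (78%) and 78.2% of all genes had the same sign. The members' r was then 0.862 and rho 0.839, against 0.605 and 0.678 across all genes. Members and all genes were not matched for count level in either setting, so their r and rho are not a like-for-like comparison.

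The difference between the genotypes' responses was tested itself, in a fit on all 14 libraries. By edgeR 0 of the 41 members and 0 of 15666 genes were called (percent called 0), and 2 members, Gmppb and Mgat2, and 950 genes had an unadjusted p under 0.05. DESeq2 and limma-voom called 0 members. Without the 2 libraries the counts were again 0 members and 0 genes, with 2 members and 524 genes at an unadjusted p under 0.05. Gmppb had a difference of -0.51 (95% interval -0.89 to -0.13, adjusted p = 1 by edgeR), with a change of -0.59 in SirT7-/- and -0.08 in wild type. Mgat2 had one of -0.21 (interval -0.40 to -0.02, adjusted p = 1 by edgeR). For Magt1 the difference was -0.03 (interval -0.49 to 0.42) and for Alg12 -0.02 (interval -0.53 to 0.49). For Stt3b it was -0.02 (interval -0.29 to 0.25). With the libraries as labelled these 3 differences were -0.92, -0.95 and -0.47, with intervals that all spanned 0. Over all 41 members the differences ran from -0.51 (Gmppb) to 0.58 (Man1a) without the 2 libraries. As labelled they ran from -0.95 (Alg12) to 0.66 (Man1a).

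Genotype alone moved no member past the test in either medium. In normal medium edgeR called 0 of 41 members and 1 gene, or 0.00638% of those tested, with 0 members and 658 genes at an unadjusted p under 0.05. Without glucose it called 0 members and 1 gene (0.00638%), with 1 member, Mgat2, and 608 genes at an unadjusted p under 0.05. DESeq2 and limma-voom called 0 members in both media. The log2 differences of the members, SirT7-/- minus wild type, ran from -0.46 (Man1a) to 0.49 (Alg12) in normal medium and from -0.46 (Alg12) to 0.33 (Dpm3) without glucose.

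Without the 2 libraries, edgeR called 0 members in both media, against 4 genes (0.0252%) in normal medium and 1 gene (0.0063%) without glucose. In normal medium 2 members had an unadjusted p under 0.05. Man1a, at 36.0, 32.7 and 29.4 CPM in KO-NT 1 to 3 against 30.6 to 73.1 CPM in WT-NT, had a difference of -0.52 (interval -1.02 to -0.02, adjusted p = 0.621 by edgeR), and the libraries overlapped. Gmppb, at 54.5 to 57.5 CPM against 39.2 to 55.4 CPM, had a difference of 0.26 (interval 0.02 to 0.50, adjusted p = 0.596 by edgeR). Without glucose 1 member, Mgat2, had an unadjusted p under 0.05 (difference -0.17, interval -0.32 to -0.02, adjusted p = 1 by edgeR). In normal medium 39 of the 41 intervals lay within a log2 difference of 1 in either direction, and without glucose 40 did.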

How the data were processed

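The submitters' processing notes name HISAT2 2.1.0 and StringTie 1.3.3 with genome build mm9, Trimmomatic 0.36 and FastQC 0.11.3, SAMtools, and DESeq2 1.18.1, without their roles. The annotation and strand setting are not given in the sources used here, so reads of genes that overlap on opposite strands may be shared. The authors deposited whole-number estimated counts for 24015 symbols, of which 4225 were 0 in all libraries and 27 were dates in place of symbols. A count of 0 allows up to 3 counts, or 0.0502 CPM in the shallowest library, by counting error alone.

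Counts were fitted with edgeR 4.0.16 (R 4.3.3; TMM, filterByExpr with minimum count 10 and total 15, robust quasi-likelihood F-test) and adjusted by Benjamini-Hochberg over all genes tested, with calls at 0.05. Starvation was fitted within a genotype, genotype and the difference in response on all 14 libraries. The SE was worked back from the F-test. Alternatives were DESeq2 1.42.0, limma-voom (limma 3.58.1), RLE size factors, library size with no further scaling, omitting the filter, a filter at 1 CPM throughout a group with a mean count of 50, other samples in the fit, a replicate block and leaving out each library. Leaving out KO-NT 4 and KO-GS 3, and counting CCAAT and CCACG apart, were added later. The fit was tested on simulated counts with 50 genes changed at each fold. With the 7 wild-type libraries it recovered 2% of changes of 1.25-fold, 10% of 1.5-fold, 70% of 2-fold and 90% of 4-fold. With 5 SirT7-/- libraries it recovered 2%, 14%, 78% and 98%, so a small change can go uncalled. Far fewer genes changed there than the 5161 called in wild type, so these shares do not carry over directly. The genotype comparisons were not simulated.

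The members and lists were chosen with earlier results of these data known. Values in every library are given for the 12 called members with the largest change in wild type, the largest and smallest change in each role, and the 6 pairs. Promoter windows come from RefSeq on GRCm38.p6, not the build of the counts, and were matched by symbol (34 of 41 members, 27 of 31 further genes). Protein sequences were not used here.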

Additional observations from a re-analysis of the deposited data

Results flagged for a closer look

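In the groups with 4 libraries, the highest or lowest library of each member was compared with the range of its group (Dixon's criterion), over 82 groups of values. In 1 such group taken alone, chance sets a library apart in about 1 of 20 cases. Here 15 groups had a library set apart, 12 of them through the library labelled KO-NT 4. The members vary together within a library, and KO-NT 4 was already seen to stand apart. The 82 groups are thus not independent, and the 15 cannot be weighed against that rate. The criterion was not run over all genes. In KO-NT 4 the transferase genes Rpn2 (831 CPM), Rpn1 (660.5 CPM), Ddost (428 CPM), Magt1 (364 CPM) and Stt3b (348 CPM) were far above KO-NT 1 to 3. Alg2 (83.6 CPM), Alg12 (37.2 CPM) and Prkcsh (259.8 CPM) were likewise high there. Alg6 (13.1 CPM against 12.04 to 12.17 CPM) and Man1b1 (116 CPM against 99.6 to 101 CPM) stood apart upward, and Alg9 (24.4 CPM against 29.2 to 29.8 CPM) and Man1a2 (97.0 CPM against 129 to 134.5 CPM) downward, from 3 libraries that lay close together. In wild type, WT-NT 2 was highest for Pmm2 (49.6 CPM) and Alg5 (48.0 CPM), and WT-NT 4 was lowest for Alg8 (18.9 CPM).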

How the results depend on the processing

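The count of members called for wild-type starvation stayed between 19 and 22 with DESeq2 or limma-voom, with scaling by RLE or by library size, with the filter dropped or tightened, or with other samples in the fit, and between 15 and 24 when 1 library was left out. The count over all genes ran from 2841 (without WT-GS 1) to 6668 (without WT-NT 4) when 1 library was left out. Single members changed sign only where the change was small and not called. When single libraries were left out, Gmppb ran from -0.156 to 0.0083, Dpm2 from -0.127 to 0.0387, Alg3 from -0.008 to 0.151, Mogs from -0.0676 to 0.0142 and Man1a from -0.359 to 0.0819. The cause was not tested.

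For SirT7-/- starvation as labelled, DESeq2 called 3 members and 581 genes. Without KO-NT 4 and KO-GS 3, edgeR called 23 members and 6065 genes. Leaving out 1 library gave 0 to 3 members and 0 to 2182 genes, with 3 members and 2182 genes without KO-NT 4 and 2 genes without KO-GS 3. Alg12 then ran from -0.0906 to 0.926 and Rpn1 from -0.167 to 0.581, both lowest without KO-GS 1.

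For genotype, the count of members called was 0 under every alternative run, in both media and for the difference in response. In normal medium the count over all genes was 23 with DESeq2, 3 with limma-voom, 2 with RLE size factors, 2 with the stricter filter, 4 without the 2 libraries and 1 to 2 with 1 library left out. Magt1 turned from 0.48 to -0.0921 in normal medium without the 2 libraries, and ran from -0.0821 (without KO-NT 4) to 0.652 with 1 library left out. Without glucose the count was 7 with DESeq2 and 1 to 2 with 1 library left out. For the difference in response it was 5 with DESeq2 and 0 to 1 with 1 library left out.

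Same-numbered libraries did not deviate together in every pair (correlations from -0.175 to 0.514), and the labels do not say that the numbers mark a shared batch, so they were not treated as pairs. With the replicate number as a block, edgeR called 20 members and 5862 genes for wild-type starvation, 0 of either for SirT7-/- starvation, and 2 genes for genotype in normal medium. In that block fit Alg3 had a change of -0.0128 and Man1a one of 0.10, against 0.07 and -0.19 without the block.

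With 2 to 4 libraries a group, small changes of low genes such as Dpm3, at 2.46 to 14.03 CPM, are measured least precisely.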
